A study of Homo sapiens with 12 samples.

Results

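Imprinted genes are expressed mainly from the allele of 1 parent, under the control of DNA methylation set in the germ line and, at some loci, of H3K27me3, the histone mark deposited by EZH2 in polycomb repressive complex 2. A set of 10 imprinted genes was chosen by symbol: PEG10, PEG3, MEST, H19, IGF2, DLK1, MEG3, NDN, SNRPN and MAGEL2. They were looked up in an RNA-Seq count table of 14438 gene symbols, and 1 of the 10, PEG10, had a row in it. No row carried a synonym of another member either, and the other 9 genes were not analysed here. The values below are therefore those of PEG10, followed by other imprinted genes, genes that set or maintain imprints, the IGF pathway and the genes around all 10 loci.

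RNA was sequenced from 12 samples of the embryonic kidney line HEK293T, in 4 groups of 3 replicates. Each line was stably infected with a lentivirus for 1 form of the EZH2 protein: the wild type (WT), the single substitutions Y641F and A677G, and, in the fourth line, H689A together with F667I (EZH2 H689A/F667I). Y641F and A677G lie in the catalytic domain and are known as gain-of-function (GOF) changes, while the double mutant is the loss-of-function (LOF) form. All lines kept their endogenous EZH2, were grown in DMEM with fetal bovine serum and were selected with blasticidin in a way the study's methods describe as giving monoclonal populations, so that the introduced variant and the properties of a clone cannot be told apart. How the replicates of a line were separated was not given in the sources used here, and p-values measure only the spread between them.

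Total counts ran from 32137700 to 44562413 per sample, and the highest Pearson correlation of log2 CPM (counts scaled to the library size with TMM factors) between samples was 0.9954, so no library appeared to be deposited more than once. EZH2 itself, counted over introduced and endogenous RNA together, was at 158 ± 4.32 CPM in WT, 218 ± 9.61 in Y641F, 173 ± 8.57 in A677G and 208 ± 2.03 in the LOF mutant (SD, n = 3). Of 6 kidney-lineage markers 5 had a row, led by SIX2 at 28.5 CPM, with a summed level of 46.8 to 47.6 CPM in WT, 42.3 to 47.4 in Y641F, 42.3 to 44.6 in A677G and 46.7 to 49.4 in the LOF mutant. All 6 genes listed as neural or adrenal markers had a row. They summed to 597 to 618.8 CPM in WT, 450.6 to 495.3 in Y641F, 423.5 to 456.8 in A677G and 540.3 to 547.3 in the LOF mutant. Most of this sum came from 3 genes. VIM was at 269.5, 247.4, 254.3 and 260.2 CPM on average in these lines in the same order. NEFM was at 184.7, 126.1, 90.96 and 145 CPM and NEFL at 133, 78.96, 73.13 and 115.4 CPM. INA, ENO2 and CHGA were at 16.8, 4.53 and 0.552 CPM over all samples. Of these 6 genes, 3 were lower than in WT in Y641F, 3 in A677G and 2, NEFM and NEFL, in the LOF mutant (adjusted p under 0.05 by edgeR). Over all tested genes, 7.68%, 8.55% and 0.301% passed in either direction. Of 4 blood and 4 liver markers none had a row. Any filter on genes was not given in the sources used here, so a missing row does not show that a gene was silent. The 2 fibroblast markers with a row, COL1A1 and LUM, summed to at most 12.96 CPM in any sample, and KDR, the 1 of 4 endothelial markers with a row, stayed at or under 0.784 CPM. The part of these marker levels in the results below was not tested.

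PEG10 (paternally expressed gene 10, ENSG00000242265.6) is a gene derived from a retrotransposon and is required for the formation of the placenta. Its messenger RNA carries 2 overlapping reading frames, of which the second, resembling the polymerase part of a retroelement, is read only when ribosomes slip backwards at a short slippery sequence at the end of the first, gag-like frame. The gene lies on chromosome 7 of GRCh38 from 94656325 to 94669695 on the plus strand. Its annotated exons cover 6689 bases, 95.1% of them in the longest exon, and the canonical transcript has 2585 bases. The frameshift region at chr7:94664472-94664537 on the plus strand is shown because both frames lie on the same messenger RNA. A count of RNA therefore cannot tell which frame was read. The capitals mark the slippery heptamer GGGAAAC, found once in the window.

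PEG10 frameshift region: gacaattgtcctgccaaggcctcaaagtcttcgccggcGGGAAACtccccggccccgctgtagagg

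In the GENCODE annotation of the joined coding sequence, the part in the first frame ends at 94664507 and the part in the second begins at 94664510, where the heptamer starts. The annotation leaves out the 2 bases between these parts and does not show the backward slip itself. The heptamer runs to 94664516.

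PEG10 had a low level in the count table. Its mean was 0.700 CPM over the 12 samples, against a median of 24.5 CPM over the 14263 genes tested. At or below its mean log2 CPM were 5.22% of tested genes. Whether little PEG10 RNA was present in the cells or few of its reads were assigned to it was not tested. Per length of the canonical transcript the level of PEG10 was 0.271 CPM per kb, against a median of 7.31 CPM per kb. This scale depends on the length used: the canonical transcript of PEG10 has 2585 bases, while its annotated exons cover 6689. The gene next to it, SGCE, which is read from the opposite strand and overlaps PEG10 by 248 bases, had 22.4 times the level of PEG10 on the same scale of CPM per kb. The library kit marks strand, but whether strand was used in counting was not given in the sources used here, so reads from the overlap could have been assigned to either gene.

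In WT the 3 replicates held 26, 18 and 16 counts of PEG10, or 0.704, 0.466 and 0.483 CPM. Y641F held 20, 24 and 28 counts, or 0.476, 0.630 and 0.662 CPM. In A677G there were 46, 20 and 16 counts, or 1.03, 0.492 and 0.439 CPM. The replicates of WT and Y641F thus covered nearly the same range, and in A677G replicate 1 stood above the other two. The LOF mutant held 38, 32 and 38 counts, or 1.03, 0.815 and 1.18 CPM, and all 3 replicates lay above every replicate of WT and Y641F.

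**Figure D1:**
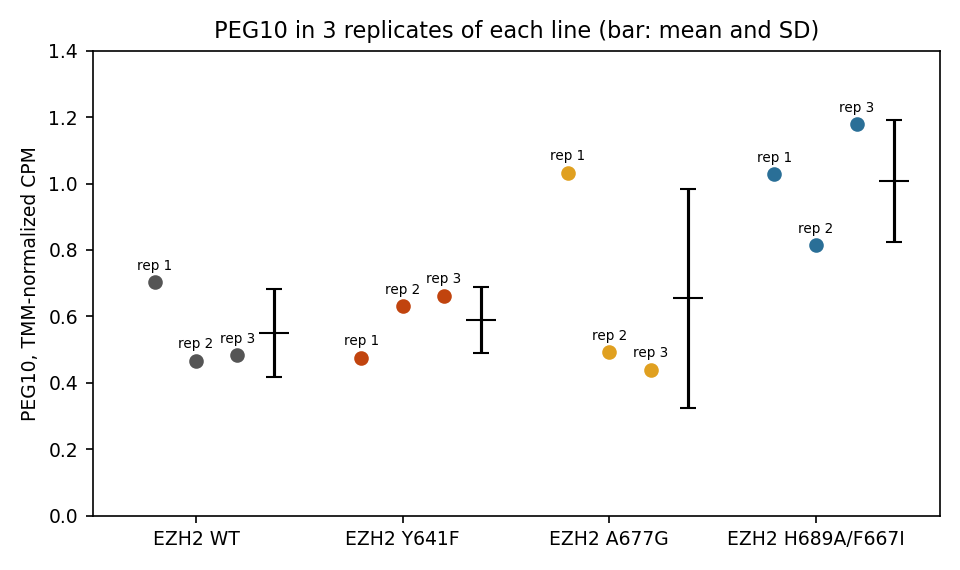
PEG10 level in TMM-normalized CPM (vertical axis) in each of 12 samples, by line; points are replicates and bars give the mean with its SD (n = 3). The LOF mutant (EZH2 H689A/F667I) lies between 0.815 and 1.18 CPM, above all replicates of WT and Y641F, while replicate 1 of A677G, at 1.03 CPM, lies within its range.

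Mean levels of PEG10 were ordered as WT, Y641F, A677G and LOF mutant, at 0.551 ± 0.133, 0.589 ± 0.0999, 0.654 ± 0.328 and 1.01 ± 0.183 CPM (SD, n = 3). Neighbours in this order did not differ beyond their spread: by edgeR's quasi-likelihood test without adjustment, p was 0.803 for Y641F against WT, 0.628 for Y641F against A677G and 0.0892 for A677G against the LOF mutant.

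The comparison of each mutant with WT asks whether a change of EZH2 activity was accompanied by a change of PEG10 RNA. PEG10 did not pass the threshold, an adjusted p under 0.05 by edgeR's quasi-likelihood F test, Benjamini-Hochberg adjusted over all genes tested, in any of the 3. In Y641F, where 7.68% of all tested genes passed it, the log2 fold change of PEG10 was 0.09 (95% interval -0.66 to 0.85, standard error 0.372, adjusted p = 0.936 by edgeR). In A677G, where 8.55% of genes passed, it was 0.27 (95% interval -0.47 to 1.01, standard error 0.365, adjusted p = 0.756 by edgeR). Without replicate 1 of A677G the estimate turned to -0.24. Both intervals span 0, so that no change of PEG10 was detected, while a change of any size within them remains possible. Fewer cells expressing a gene and less RNA per cell cannot be told apart in bulk RNA.

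PEG10 had a log2 fold change of 0.86 in the LOF mutant (95% interval 0.14 to 1.57, standard error 0.353), a ratio of 1.81 with an interval of 1.10 to 2.98. The unadjusted p was 0.0202, but the adjusted p was 0.464 by edgeR, in a comparison where 0.301% of genes passed and PEG10 ranked at 619 of 14263 by p. Replicates of the LOF mutant and WT did not overlap at PEG10, as they did not, with the LOF mutant higher, at 7.89% of tested genes. The estimate stayed between 0.73 and 1.07 when any 1 replicate was left out, and the adjusted p stayed at or above 0.170 under every setting tried. An exact permutation test of 3 samples against 3 cannot go below 0.1.

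The mutants were also set against each other. Y641F differed from A677G by -0.17 at PEG10 (95% interval -0.89 to 0.55, adjusted p = 0.954 by edgeR), and 0.0841% of genes passed in that comparison. Against the LOF mutant, PEG10 was at -0.76 in Y641F (95% interval -1.46 to -0.07, unadjusted p = 0.0326, adjusted p = 0.185 by edgeR), where 8.92% of genes passed. The replicates did not overlap there either, which held, with Y641F lower, for 12.2% of genes. For A677G against the LOF mutant the value was -0.59 (95% interval -1.28 to 0.10, adjusted p = 0.327 by edgeR), with overlapping replicates and 10.3% of genes passing. Without replicate 1 of A677G this estimate was -1.10 and the one between the GOF mutants was 0.33, and PEG10 still did not pass in either. Comparisons that name the same line share its replicates.

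**Figure D2:**
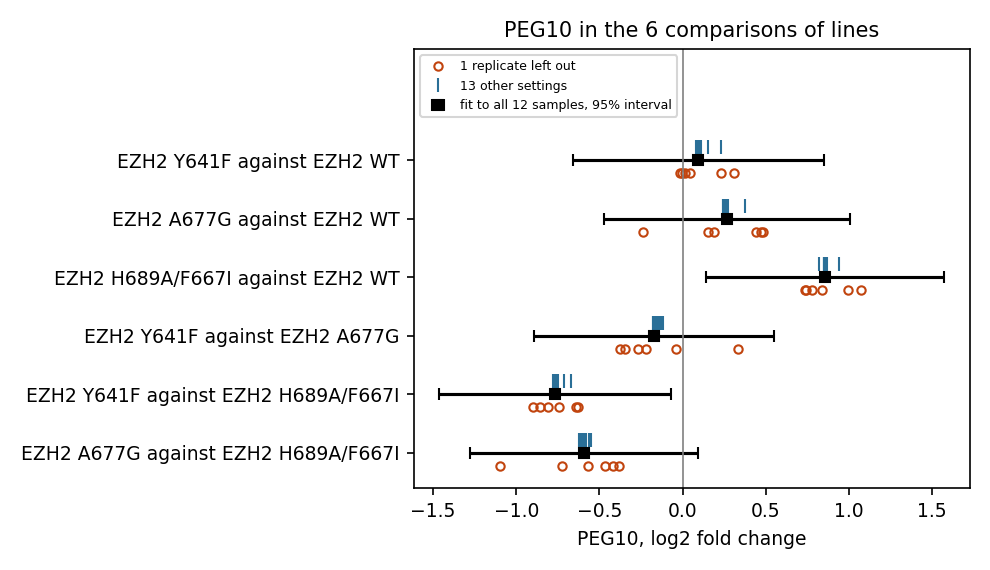
Log2 fold change of PEG10 (horizontal axis) in the 6 comparisons of lines: squares with bars are the fit to all 12 samples with its 95% interval, circles the fits without 1 replicate, and ticks 13 other settings. Both intervals that exclude 0, for the LOF mutant against WT (0.14 to 1.57) and Y641F against the LOF mutant (-1.46 to -0.07), belong to adjusted p-values of 0.464 and 0.185 by edgeR.

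The counts of PEG10 had a further property that bears on their precision. All were even, in 12 of 12 samples. Across the table, 53.4% of all counts were even, and 169 genes (1.17%) were even in every sample. Among genes with a mean count of 16 to 46, the range of single counts at PEG10, the share was 5.64%. Genes even in every sample had a median of 70.2% of their exon length in the longest exon, against 45.5% in other genes, and PHLDA2 and RGAG4, described below, were among them. How an even count arose was not tested. If each fragment entered the table as a pair of counts, the sums over 3 replicates stood for 30 fragments in WT, 36 in Y641F, 41 in A677G and 54 in the LOF mutant. The exact 95% Poisson intervals of these sums are 20.2 to 42.8, 25.2 to 49.8, 29.4 to 55.6 and 40.6 to 70.5, covering counting error only. The intervals of WT and the LOF mutant meet at their ends. Overlap of separate intervals does not compare the sums, and whether counting error alone covers their difference was not tested. In a fit with the counts of such genes divided by 2, PEG10 passed in none of the 6 comparisons.

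Other imprinted genes known to be expressed from the paternal allele were then examined. Of 23 such genes 10 were tested, and none passed in Y641F, A677G or the LOF mutant, where 7.68%, 8.55% and 0.301% of all genes did, so that the count is near the share of all genes. They had median log2 fold changes of -0.03, 0.02 and 0.01 against 0.00 over all tested genes. The most abundant were ZDBF2, a zinc finger gene at 90.2 CPM, with -0.04, -0.01 and 0.01, and PLAGL1, a zinc finger transcription factor at 26.5 CPM, with -0.12, -0.03 and 0.00. SGCE, which encodes epsilon-sarcoglycan and has its promoter beside that of PEG10, was chosen for its place after the values were known. Its level was 11.1, 12.5 and 10.1 CPM in WT, 12.3, 10.2 and 11.7 in Y641F, 10.6, 11.2 and 10.8 in A677G, and 12.7, 12.3 and 10.6 in the LOF mutant. All lines overlapped at SGCE. Its log2 fold changes against WT were 0.02 (95% interval -0.18 to 0.23), -0.05 (-0.25 to 0.15) and 0.08 (-0.12 to 0.29), so that a difference of the size estimated for PEG10 in the LOF mutant lay outside the interval of its neighbour. Whether PEG10 and SGCE differed in response was not tested. Retroelement-derived relatives of PEG10 were added after the values were seen: 7 of 11 were tested and 0 passed in the 3 comparisons, near the share of all genes (7.68%, 8.55% and 0.301%). Among them was RGAG4, with mean levels of 0.937, 0.764, 0.961 and 1.25 CPM in the 4 lines in the order above.

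Of 19 imprinted genes known to be expressed from the maternal allele in some tissues, 14 were tested. In Y641F 1 was lower (7.14% of them, with 7.68% of all genes passing), in A677G 1 was lower (7.14%, with 8.55% of all genes) and in the LOF mutant none passed. The medians of their log2 fold changes were -0.03, -0.03 and 0.08. The most abundant members, GNAS, which encodes the stimulatory G protein alpha subunit, at 542 CPM, and UBE3A, a ubiquitin ligase, at 127 CPM, had log2 fold changes between -0.02 and 0.02 in the 3 mutants. PHLDA2, a growth-restraining gene of the placenta picked for its even counts, had 1.10 ± 0.273 CPM in WT, 0.869 ± 0.138 in Y641F, 0.697 ± 0.420 in A677G and 1.43 ± 0.577 in the LOF mutant (SD, n = 3), and did not pass.

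The gene lower in Y641F was KCNQ1 (ENSG00000053918.19, chromosome 11 of GRCh38, 2444654 to 2849105), a potassium channel subunit whose paternal copy is silenced early in development by the antisense RNA KCNQ1OT1, transcribed from within the gene. KCNQ1 counts were 24, 22 and 24 in WT, 11, 9 and 4 in Y641F, 24, 20 and 10 in A677G and 20, 35 and 34 in the LOF mutant. Y641F was thus below all WT and LOF replicates. By CPM its highest replicate, at 0.262, was also under the lowest of A677G, at 0.274. Y641F lay below all LOF replicates at 12.2% of tested genes, and the shares against WT and A677G were not counted. The log2 fold change was -1.70 in Y641F against WT (standard error 0.441, adjusted p = 0.0107 by edgeR's quasi-likelihood F test, Benjamini-Hochberg adjusted) and -0.55 in A677G (adjusted p = 0.472). The direct difference between both GOF mutants at KCNQ1 was -1.15 (95% interval -2.08 to -0.22, adjusted p = 0.627 by edgeR). Without replicate 3 of Y641F the value of KCNQ1 against WT was -1.36 and did not pass (adjusted p = 0.0847). KCNQ1OT1 itself had 18.6, 19.7, 16.5 and 17.5 CPM on average in the 4 lines and did not pass in any mutant. KCNQ1OT1 lies within the span of KCNQ1, from 2597308 to 2700003, and reads from that stretch can be assigned to 1 of the genes only if strand was used in counting. KCNQ1OT1 was chosen as the antisense partner, with its values known.

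TFPI2 (ENSG00000105825.14, chromosome 7 of GRCh38, 93885396 to 93890753), a secreted protease inhibitor imprinted in the placenta, was the gene lower in A677G. It held 51, 43 and 50 counts in WT, 26, 36 and 44 in Y641F, 35, 26 and 26 in A677G, and 71, 64 and 45 in the LOF mutant. Every replicate of A677G was below every replicate of WT and the LOF mutant, but the share of all genes separated in this way was not counted. The log2 fold change against WT was -0.90 in A677G (standard error 0.290, adjusted p = 0.0462 by edgeR's quasi-likelihood F test, Benjamini-Hochberg adjusted), and -0.62 in Y641F (adjusted p = 0.217). The GOF mutants differed from each other at TFPI2 by 0.28 (95% interval -0.33 to 0.89). TFPI2 failed the threshold in A677G in all 6 fits without 1 replicate, with adjusted p between 0.0564 and 0.156 by edgeR, and also with thinned counts (0.0556).

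**Figure D3:**
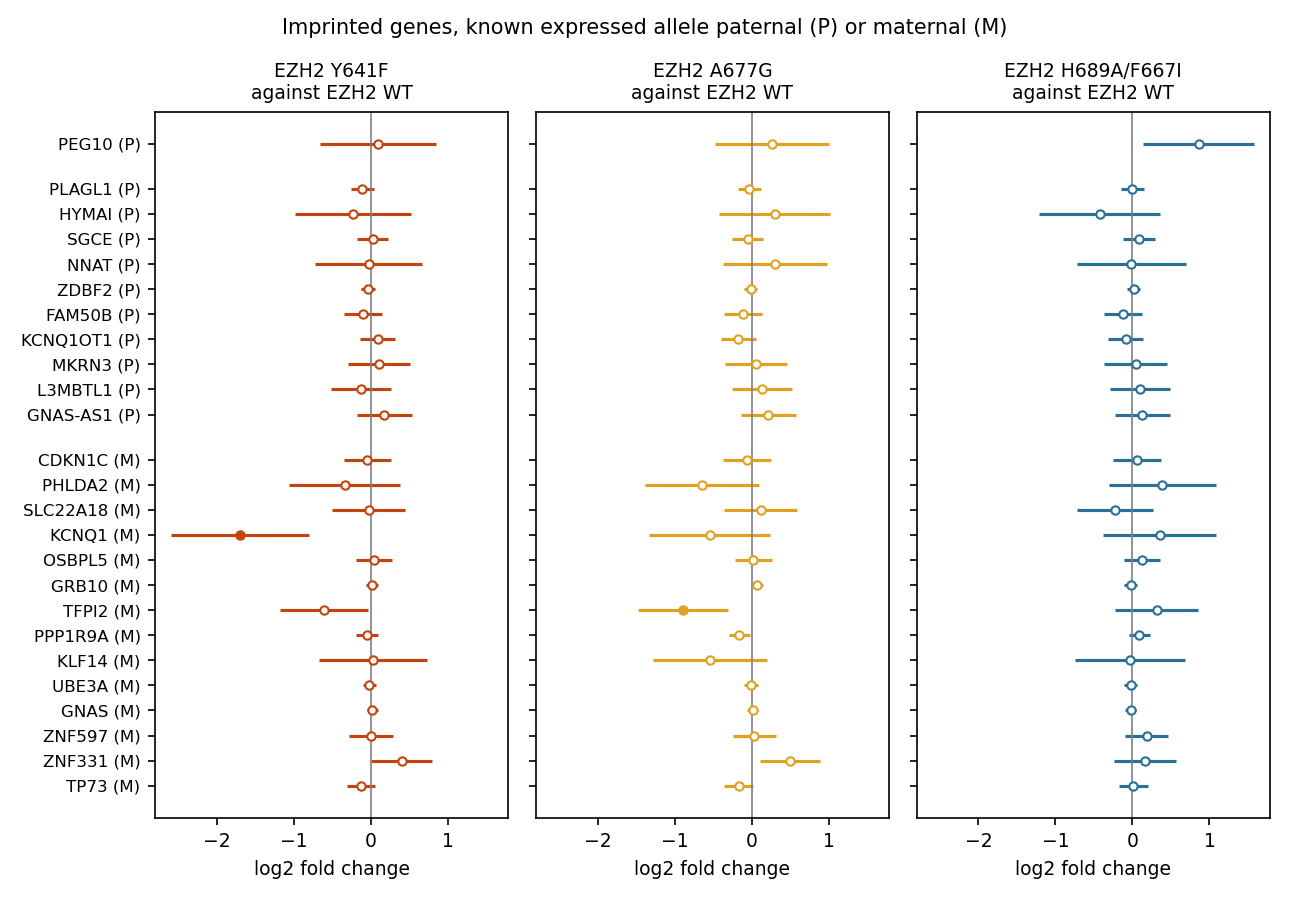
Log2 fold change against WT (horizontal axes) of PEG10 and of 10 paternally (P) and 14 maternally (M) expressed imprinted genes in the 3 mutants; bars are 95% intervals and filled points passed the threshold. KCNQ1 in Y641F, at -1.70, and TFPI2 in A677G, at -0.90, are the filled points, and none is filled in the LOF mutant.

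TFPI2 lies in the imprinted region of PEG10, and all tested genes whose start is within 1 Mb of that of PEG10 were described. There were 8 of them: TFPI2, GNG11, BET1, CASD1, SGCE, PPP1R9A, PON2 and PDK4. In Y641F 1 was lower (12.5%, with 7.68% of all genes passing), in A677G 2 were lower (25%, with 8.55% of all genes), and in the LOF mutant 0 passed (0.301% of all genes). GNG11, a G protein gamma subunit whose start is 734.6 kb upstream of that of PEG10 and next to TFPI2, at 765.6 kb, was lower in both GOF mutants. It had 2.44, 3.16 and 2.90 CPM in WT, 1.95, 1.52 and 1.42 in Y641F, 1.57, 1.06 and 1.48 in A677G and 3.09, 2.62 and 3.72 in the LOF mutant. All replicates of the GOF mutants were below all others, but how many of all tested genes did the same was not counted. The log2 fold change of GNG11 was -0.79 in Y641F (standard error 0.213, adjusted p = 0.0143 by edgeR's quasi-likelihood F test, Benjamini-Hochberg adjusted) and -1.05 in A677G (standard error 0.218, adjusted p = 0.00107), and 0.15 in the LOF mutant (adjusted p = 0.896). GNG11 did not pass in Y641F without replicate 2 of WT (adjusted p = 0.0982 by edgeR), replicate 2 of Y641F (0.0513) or replicate 3 of Y641F (0.0771).

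The values of 4 further neighbours are given for their place beside PEG10, and were picked with their values known. CASD1, a sialic acid acetyltransferase 147.1 kb upstream, had log2 fold changes of 0.15, 0.21 and -0.02 in Y641F, A677G and the LOF mutant. PPP1R9A, which encodes the actin-binding protein neurabin and is 250.9 kb downstream, had -0.05, -0.16 and 0.09. PDK4, a kinase that inhibits pyruvate dehydrogenase and the farthest at 940.2 kb, had -0.48, -0.41 and 0.38. PON2, a lactonase, had 0.03, -0.01 and 0.07. None of these passed against WT. Between A677G and the LOF mutant, PPP1R9A differed by -0.25 (95% interval -0.39 to -0.11, adjusted p = 0.0118 by edgeR), TFPI2 by -1.21 (adjusted p = 0.00333) and GNG11 by -1.19 (adjusted p = 1.63e-04), while PEG10, at -0.59, did not pass. Between Y641F and the LOF mutant, TFPI2 differed by -0.93 (adjusted p = 0.0271 by edgeR) and GNG11 by -0.94 (adjusted p = 0.00255), while PPP1R9A, at -0.14, and PEG10, at -0.76, did not pass.

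**Figure D4:**
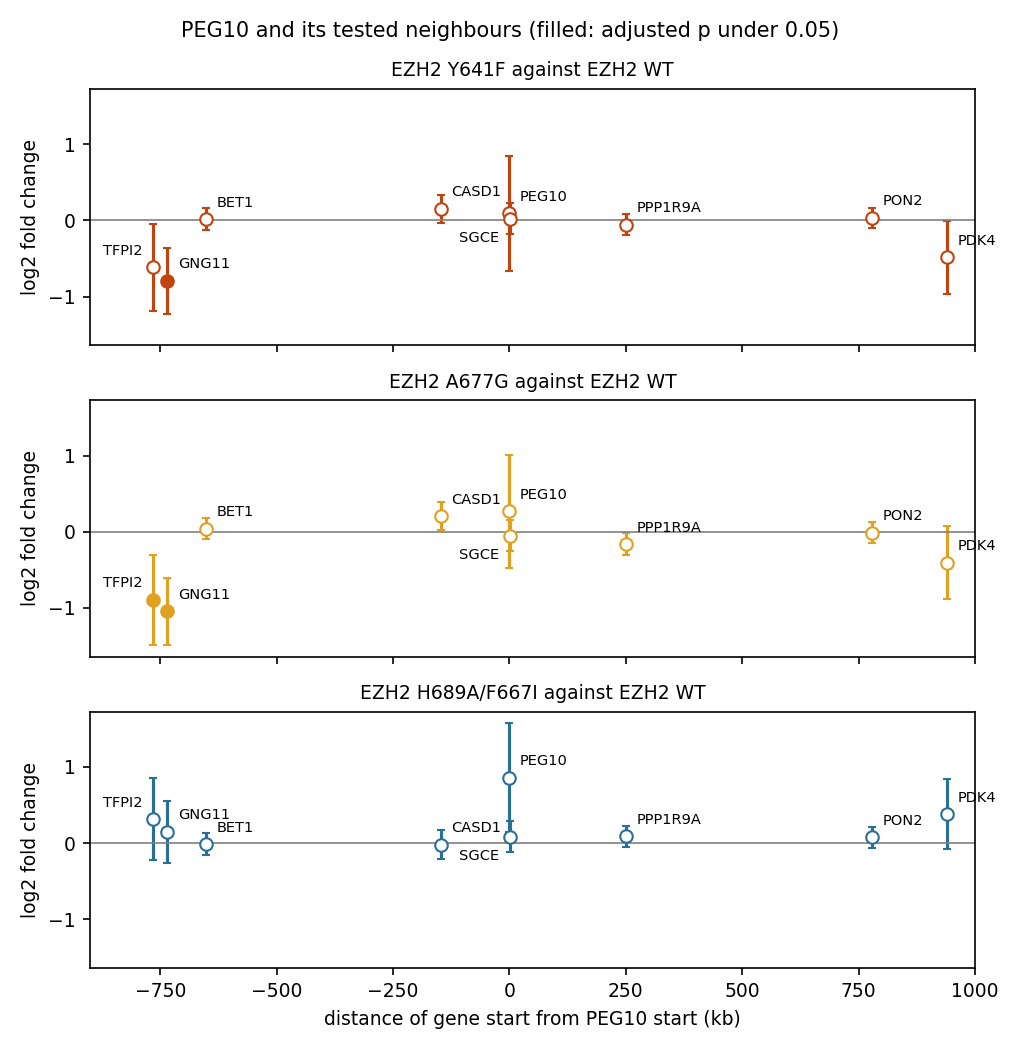
Log2 fold change against WT (vertical axes) of PEG10 and its 8 tested neighbours by the distance of their start from that of PEG10 in kb (horizontal axis), in 3 mutants; bars are 95% intervals and filled points passed the threshold. GNG11, 734.6 kb upstream, is filled in both GOF mutants and TFPI2, at 765.6 kb, in A677G, while the interval of PEG10 is the widest in each panel.

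Around all 10 loci together, including those of the 9 members not analysed, 89 genes with a start within 1 Mb of a member's were tested. Of these 2 were higher and 4 lower in Y641F (6.74%, with 7.68% of all genes passing), 3 higher and 5 lower in A677G (8.99%, with 8.55% of all genes) and 0 in the LOF mutant (0.301% of all genes). The most abundant neighbours that did not pass were NAP1L4, a histone chaperone 834 kb from IGF2, and YY1, a transcription factor 487.4 kb from DLK1 and 541.1 kb from MEG3.

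NIPA1, a magnesium transporter, starts 914.2 kb from NDN and 874.8 kb from MAGEL2, genes of the Prader-Willi region. It was higher in both GOF mutants: it had 26.1 ± 2.03 CPM in WT, 30.6 ± 0.622 in Y641F, 32.1 ± 0.109 in A677G and 27.2 ± 1.47 in the LOF mutant (SD, n = 3). Its log2 fold change was 0.23 in Y641F (adjusted p = 0.0178 by edgeR) and 0.30 in A677G (adjusted p = 0.00115). In Y641F it did not pass without replicate 1 (adjusted p = 0.140 by edgeR) or replicate 2 (0.0967) of WT. UBE2H, a ubiquitin-conjugating enzyme 533.2 kb from MEST, was also higher, by 0.16 in Y641F and 0.18 in A677G (adjusted p = 0.0375 and 0.0138 by edgeR). The call of UBE2H in Y641F was lost under 4 of 13 other settings and without replicate 1 or 3 of WT or of Y641F (adjusted p up to 0.238 by edgeR), and in A677G without replicate 1 of WT (0.135) or replicate 1 (0.0621) or 3 (0.0560) of A677G.

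On chromosome 14, SLC25A29, a mitochondrial carrier of basic amino acids, starts 419.2 kb from DLK1 and 472.9 kb from MEG3. It had a log2 fold change of -0.41 in Y641F (adjusted p = 0.00867 by edgeR) and -0.20 in A677G (adjusted p = 0.269). Without replicate 2 of WT it was -0.32 and did not pass in Y641F (adjusted p = 0.105 by edgeR). BEGAIN, a synaptic protein gene 138.3 kb from DLK1 that was picked after its values were seen, had 1.25, 1.94 and 1.27 CPM in WT, 0.761, 0.946 and 0.449 in Y641F, 0.673, 0.958 and 0.439 in A677G, and 1.46, 1.07 and 1.80 in the LOF mutant. Both GOF mutants lay below all replicates of WT and the LOF mutant at BEGAIN, with log2 fold changes of -1.06 and -1.10 (adjusted p = 0.0330 and 0.0240 by edgeR). How common such a separation was over all genes was not counted. BEGAIN failed the threshold without replicate 2 of WT in both (adjusted p = 0.250 and 0.199), without replicate 3 of Y641F (0.189) and without replicate 1 (0.0852) or 3 (0.145) of A677G. DUSP8, a phosphatase of MAP kinases, starts 432.3 kb from H19 and 586.1 kb from IGF2. It had a log2 fold change of -0.55 in A677G (adjusted p = 0.0207 by edgeR) and -0.13 in Y641F (adjusted p = 0.713). The call was lost without replicate 1 (adjusted p = 0.0626 by edgeR) or 2 (0.108) of WT and without replicate 1 (0.141) or 2 (0.0956) of A677G. It was also lost with counts thinned to the smallest library (0.0535).

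Of 15 genes with roles in setting or maintaining imprints 11 were tested. None passed in any mutant, where 7.68%, 8.55% and 0.301% of all genes did, and a count of 0 is near these shares in a list of this size. They had median log2 fold changes of 0.02 in Y641F, 0.04 in A677G and -0.04 in the LOF mutant. The most abundant, TRIM28, the corepressor recruited by zinc finger proteins to imprinted control regions, had log2 fold changes of -0.08, -0.09 and -0.10. DNMT1, which copies DNA methylation after replication, had -0.05, -0.06 and -0.07.

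Since IGF2 had no row, its pathway could be described only through other genes: of 16 receptors, adaptors, binding proteins and RNA-binding proteins, 13 were tested. In Y641F 1 was higher and 2 lower (23.1%, with 7.68% of all genes passing), in A677G 2 were higher and 2 lower (30.8%, with 8.55% of all genes) and in the LOF mutant 0 passed. IGFBP2, a secreted protein that binds insulin-like growth factors, had 72.9 ± 2.94 CPM in WT, 47.6 ± 6.20 in Y641F, 46.6 ± 0.0920 in A677G and 71.99 ± 0.114 in the LOF mutant (SD, n = 3). It fell by 0.62 in Y641F and by 0.65 in A677G on the log2 scale (adjusted p = 1.10e-09 and 3.13e-10 by edgeR), and passed in both under every setting tried. The receptor IGF1R had -0.18 in A677G (adjusted p = 0.00400 by edgeR) and the adaptor IRS2 had -0.43 in Y641F (adjusted p = 0.00978), which was lost without replicate 2 of WT (adjusted p = 0.0814). IGFBP5, another binding protein, was higher by 0.22 in A677G (adjusted p = 0.00835 by edgeR). IGF2BP3, which binds IGF2 messenger RNA, was higher by 0.15 and 0.17 in the GOF mutants (adjusted p = 0.0413 and 0.0174 by edgeR), and in Y641F it failed under 7 of 13 other settings and without replicate 2 or 3 of WT or replicate 1 or 3 of Y641F (adjusted p up to 0.301 by edgeR). In A677G the call of IGF2BP3 was lost without replicate 2 of WT (adjusted p = 0.188 by edgeR) or replicate 1 (0.126) or 3 (0.0620) of A677G, and that of IGFBP5 without replicate 2 (0.0700) or 3 (0.0995) of WT or replicate 1 of A677G (0.0750). The most abundant genes of the pathway that did not pass were IGF2BP1 and IGF2R, the receptor that clears IGF2, with log2 fold changes between -0.04 and 0.05. IGFBP3 was at 0 in all replicates of A677G and the LOF mutant and was left out of the tests. The kidney-lineage marker PAX2 was left out too, at 0 in all replicates of A677G and 0.401, 0.500 and 0.413 CPM in WT, Y641F and the LOF mutant. Whether such zeros were measured or set when the table was made was not given, so they are not read here as silenced genes.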

How the data were processed

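The table deposited by the authors holds unnormalized counts, whole numbers for each gene symbol and sample. Per the labels and the study's methods, total RNA was made into libraries with the TruSeq Stranded mRNA kit, reads were trimmed with Trim Galore 0.6.5, aligned to GRCh38 with STAR 2.7.9a and quantified with Salmon 1.2.0; the step to counts per symbol and any filter on genes were not given in the sources used here. Members and gene lists were chosen with earlier results of these data known. In R 4.3.3, edgeR 4.0.16 with TMM factors and the quasi-likelihood test was fitted to all 12 samples with 1 coefficient per line, in place of the study's edgeR exact test, run as an alternative. Genes at 0 in every replicate of A677G or the LOF mutant (175) were left out and 14263 tested. P-values were adjusted by Benjamini-Hochberg over all of them, at 0.05. Named genes were all members, the called genes of each list (up to 6, by adjusted p) and the 2 most abundant not called; other genes given values were picked with their values known. Had PEG10 passed, genes most like it would have been named. Positions and lengths are from GENCODE on GRCh38, matched by name (13272 symbols) or RefSeq synonym (809), with 357 unmatched. DESeq2 1.42.0 and limma 3.58.1 were among 13 alternatives. The fit was also run on simulated counts, with changes planted in Y641F alone and in genes above a minimum mean count. Counts even in every sample, as at PEG10, were not simulated.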

Additional observations from a re-analysis of the deposited data

How the results depend on the processing

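PEG10 passed in 0 of the 6 comparisons of lines under any of 13 other settings or without any 1 replicate. Its log2 fold change turned sign when a replicate was left out in 3 comparisons: in Y641F against WT it ran from -0.02 to 0.31 (-0.018 without replicate 2 of WT and -0.0021 without replicate 3 of Y641F), in A677G against WT from -0.24 to 0.48, and between the GOF mutants from -0.38 to 0.33, both turned by replicate 1 of A677G. Replicate numbers did not pair the samples, since deviations of samples with the same number correlated between -0.0557 and 0.0501. With the replicate number as a block, the value of PEG10 in the LOF mutant was 0.87 (adjusted p = 0.463 by edgeR), and the 1 call of an other imprinted gene in A677G, TFPI2, became 0 (adjusted p = 0.0576). That call also became 0 with counts thinned to the smallest library and in all 6 fits without 1 replicate (range 0 to 0), and edgeR's exact test gave 2. In Y641F the 1 call, KCNQ1, became 0 with at least 10 counts in every sample, where the gene was removed, and ran from 0 to 1 without 1 replicate. Genes that set or maintain imprints were counted together with the IGF pathway. Their 4 calls in A677G became 7 with edgeR's exact test and 7 with limma voom, and 2 to 5 without 1 replicate. The 3 in Y641F became 1 to 5 without 1 replicate, and the 0 in the LOF mutant became 1 with genes at 0 kept. Of neighbours, the 8 calls in A677G became 5 with thinned counts and 2 to 7 without 1 replicate, and the 6 in Y641F became 2 to 6. Unless stated, the cause was not tested. The fit on counts divided by 2 was chosen after seeing the data. PEG10, KCNQ1 and TFPI2 held at most 71 counts in any sample.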
